A study of Mus musculus with 20 samples.

Results

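Transcripts of respiratory complex I were examined in whole mouse hearts dissected at E13.5 (embryonic day). The 42 genes described here were taken from a fixed list of nuclear genes of the complex, matched by symbol to the Ensembl identifiers of the table, out of 48795 genes in all. They comprise 6 core subunits, 29 accessory subunits and 7 assembly factors, and the rule that defines them uses no measured value, although the list was drawn up with earlier results of these data known. Hearts came from 2 strains of mice that model Down syndrome, Dp3Tyb, which carries the duplication Dp(16Mir802-Zbtb21)3TybEmcf, and Ts1Rhr, which carries Dp(16Cbr1-Fam3b)1Rhr, each compared to wild-type (WT) littermates. Both duplications are tandem copies of part of mouse chromosome 16, so mutant hearts hold 3 copies of the genes inside and every cell of the embryo carries them. The mice were kept on the C57BL/6J background. There were 5 hearts in each of 4 groups, and 20 libraries in all. Replicate numbers follow accession order, and whether same-numbered hearts were matched is not given. Heart defects are named in the labels of 2 Ts1Rhr hearts, replicates 1 and 2, and not in those of the other 3, and all 5 were kept as 1 group by genotype.

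Complex I (NADH:ubiquinone oxidoreductase) is the entry point of most electrons into the respiratory chain. Its matrix arm takes electrons from NADH through a flavin and a chain of iron-sulfur clusters to ubiquinone, and its membrane arm pumps protons with the energy released. Core subunits carry out these reactions, some of them encoded in the mitochondrial genome, while accessory subunits surround and stabilise them and assembly factors build the complex without being part of it. The heart relies on this complex more and more as cardiomyocytes mature and turn from glycolysis to oxidation, and inherited loss of subunits is a known cause of cardiomyopathy. The comparisons ask whether these genes differ in a strain described with heart defects, Dp3Tyb, and in a strain described without them, Ts1Rhr.

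Libraries held 6.60 to 19.6 M reads (M, mega). By Xist and Y-linked transcripts, each group had 3 female and 2 male embryos. All 15 cardiomyocyte markers passed the filter on low values in both cohorts (a cohort is a strain with its own WT littermates), with summed values between 370274 and 606313. Libraries of the same group differed by more than counting noise in every pairing. Transcripts of the mitochondrial genome took over 10% of the reads in 7 hearts, of which the Dp3Tyb cohort held 1 WT heart (replicate 5, 19.5%) and 1 mutant heart (replicate 5, 15.5%). The Ts1Rhr cohort held 3 WT hearts (replicate 1, 11.8%, replicate 2, 10.5%, and replicate 4, 17.2%) and 2 mutant hearts (replicate 1, 11.6%, and replicate 2, 13.1%). The other 13 hearts had between 4.85% and 7.17%. WT replicate 5 of Dp3Tyb and WT replicate 4 of Ts1Rhr, with the highest shares, were also the smallest libraries (6.60 and 9.50 M reads).

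None of the 42 genes lies in a duplicated segment, which on chromosome 16 of GRCm38.p6 span 93369720 to 97962627 for Dp3Tyb and 93607837 to 97504936 for Ts1Rhr. Ndufb4 is on the same chromosome but outside both (chromosome 16, 37647602 to 37654368). Ndufv3, whose human orthologue is on chromosome 21, is on mouse chromosome 17 (chromosome 17, 31520115 to 31531326) and is outside both duplications. Ndufa1 (chromosome X, 37187588 to 37191238) and Ndufb11 (chromosome X, 20615326 to 20617619) are X-linked.

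The sequence around the transcription start was examined for letters bound by factors with a known role in respiratory genes. Windows from 250 bases before to 50 bases after the start were given by RefSeq (GRCm38.p6) for 38 of the 42 genes, 40 windows in all. Both strands were searched for the letters CGCATGCG (bound by NRF1), CCGGAAG (bound by ETS factors such as GABP), AAGATGGC (bound by YY1) and for a palindrome of 10 letters, shown in capitals in Ndufa7 further down, and no 2 matches overlapped. The YY1 letters were in 7 windows of complex I genes (17.5%) and in 2.75% of the 32851 windows of all genes. The NRF1 letters were in 4 windows (10%, against 1.87% of all windows) and the ETS letters in 5 (12.5%, against 8.86%). The palindrome was in both windows of 1 gene, Ndufa7 (5%, against 0.466%). That is 1 of 38 genes, and whether the 2 windows hold the same site was not examined. These shares are descriptions, and a window without a match lacks only those letters.

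All 7 matches to the YY1 letters were on the strand of the gene and began between 23 and 39 bases after the start. The range of bases 23 to 46 was drawn from these 7 sites, so it holds all of them by construction. In all genes 0.377% of the windows (124) held the letters on that strand in this range. They were 13.7% of the windows that held the letters anywhere. Binding of YY1 at these sites was not examined. The letters hold ATG, and whether it is the start codon in these genes was not examined either. The 7 sites are shown because they share both letters and place, and capitals mark the YY1 letters.
Ndufa3, chr7:3617383-3617406, plus strand: gccgccaagaacAAGATGGCcggg
Ndufc1, chr3:51408922-51408945, minus strand: agcctgcggaacAAGATGGCgccg
Ndufs7, chr10:80249461-80249484, plus strand: aaggccgaggccAAGATGGCggcg
Ndufa9, chr6:126849104-126849127, minus strand: gcattgtgggagAAGATGGCggcc
Ndufs6, chr13:73328438-73328461, minus strand: agggtcaccggcAAGATGGCggcg
Ndufs4, chr13:114388048-114388071, minus strand: tttgcctacaggAAGATGGCggcg
Ndufb8, chr19:44555393-44555416, minus strand: gcggagaaggtgAAGATGGCtgcc

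The regions from 250 bases before to 30 bases after the start are shown for 5 genes that passed the test of the mitochondrial read share described further on, 1 that went up (Ndufa12) and 4 that went down, with and without a motif. Capitals mark the ETS letters in Ndufs3 (bases -27 to -21, and 2 to 8 on the opposite strand), the NRF1 letters in Ndufa11 (bases -59 to -52) and the palindrome in Ndufa7 (bases -18 to -9). Ndufa12 and Ndufv1 held none of the 4 motifs.
Ndufa12, chr10:94198785-94199064, plus strand: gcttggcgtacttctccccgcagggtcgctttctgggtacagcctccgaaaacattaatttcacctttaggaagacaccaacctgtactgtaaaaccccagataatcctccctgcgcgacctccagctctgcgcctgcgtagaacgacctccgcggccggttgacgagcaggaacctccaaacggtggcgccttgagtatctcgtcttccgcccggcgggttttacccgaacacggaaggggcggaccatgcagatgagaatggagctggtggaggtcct
Ndufv1, chr19:4012726-4013005, minus strand: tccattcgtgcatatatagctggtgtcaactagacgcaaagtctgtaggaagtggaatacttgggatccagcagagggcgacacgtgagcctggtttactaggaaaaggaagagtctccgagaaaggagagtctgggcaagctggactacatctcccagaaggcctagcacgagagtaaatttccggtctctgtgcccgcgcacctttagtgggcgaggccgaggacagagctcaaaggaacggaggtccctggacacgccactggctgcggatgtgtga
Ndufs3, chr2:90904692-90904971, minus strand: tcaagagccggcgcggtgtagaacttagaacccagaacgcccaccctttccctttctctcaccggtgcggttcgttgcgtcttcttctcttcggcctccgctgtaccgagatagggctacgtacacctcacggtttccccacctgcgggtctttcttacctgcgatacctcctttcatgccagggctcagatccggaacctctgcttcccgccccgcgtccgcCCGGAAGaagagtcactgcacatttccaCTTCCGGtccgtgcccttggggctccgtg
Ndufa11, chr17:56717512-56717791, plus strand: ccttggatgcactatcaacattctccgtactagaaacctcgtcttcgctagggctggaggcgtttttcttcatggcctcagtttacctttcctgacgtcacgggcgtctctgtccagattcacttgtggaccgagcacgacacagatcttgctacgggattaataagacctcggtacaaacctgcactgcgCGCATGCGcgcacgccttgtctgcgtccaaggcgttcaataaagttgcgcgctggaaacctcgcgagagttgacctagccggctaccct
Ndufa7, chr17:33824322-33824601, plus strand: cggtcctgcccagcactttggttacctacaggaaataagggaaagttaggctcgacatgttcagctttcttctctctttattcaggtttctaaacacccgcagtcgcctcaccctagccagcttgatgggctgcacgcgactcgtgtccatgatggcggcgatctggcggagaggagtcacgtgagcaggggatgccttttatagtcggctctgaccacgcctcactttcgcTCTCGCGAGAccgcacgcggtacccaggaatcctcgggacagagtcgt
Of the 38 genes with a window, 17 held at least 1 of the motifs and 21 held none. GC content had a median of 59.3% over the 40 windows and 52.7% over all windows.

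In the 10 WT hearts all 42 genes were expressed. Normalised values per kilobase of transcript spanned 43.9-fold, and assembly factors were at the low end. The highest were Ndufb8, with 2623 ± 207 (SD, n = 10), Ndufc2, with 1708 ± 204, and Ndufb10, with 1595 ± 320.4, all accessory subunits of the membrane arm. The lowest were the assembly factors Ndufaf5, with 59.7 ± 6.47, Ndufaf1, with 71.3 ± 8.35, and Ndufaf3, with 89.4 ± 24.2. Of the 7 assembly factors 6 were among the lowest 10 genes. With coding length in place of transcript length 18 of the 42 genes moved by more than 10 places in the order. The same 6 of 7 count and a span of 31.6-fold were found on that scale. Among the core subunits, values per kilobase of transcript were 1336 ± 295 for Ndufv1, 1257 ± 97.0 for Ndufs1, 1206 ± 66.9 for Ndufv2, 981 ± 159 for Ndufs3, 768 ± 84.6 for Ndufs7 and 630.2 ± 39.1 for Ndufs8.

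**Figure D1:**
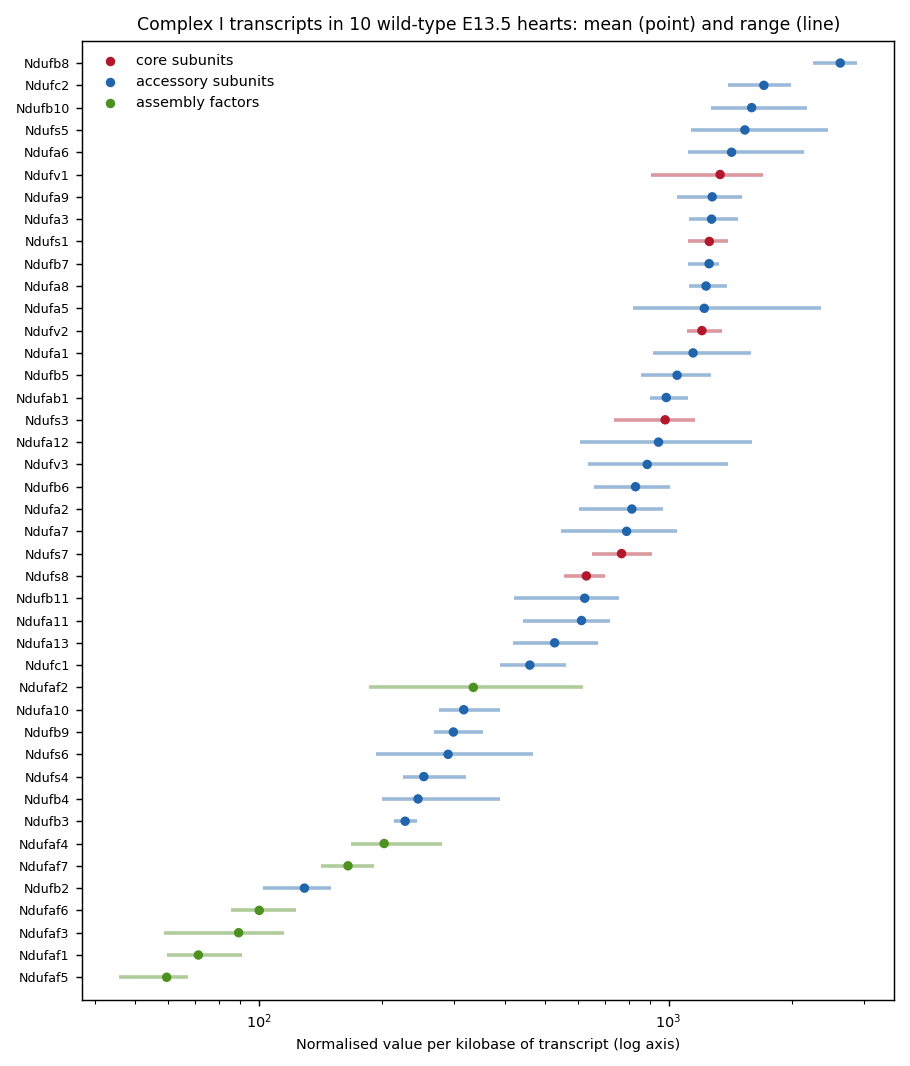
Normalised value per kilobase of transcript (log axis) of 42 complex I genes in 10 WT hearts, with the mean as a point and the range as a line, coloured by class. Ndufb8 is at the top (mean 2623) and Ndufaf5 at the bottom (mean 59.7), and 6 of the 7 assembly factors are among the lowest 10.

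WT hearts differed among themselves far more in some genes than in others. The coefficient of variation over the 10 WT hearts was 4.59% for Ndufb3, 5.45% for Ndufb7 and 5.54% for Ndufv2. It was 42.6% for Ndufa5, 39.1% for Ndufa12 and 37.6% for Ndufaf2.

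In Dp3Tyb hearts no complex I gene passed the test against WT littermates. The median log2 fold change over the 42 genes was -0.05, with 32 genes lower and 10 higher than in WT littermates, while over all 14763 genes tested the median was 0.00 and 51.1% were below 0. The medians were -0.04 for core subunits (5 of 6 lower), -0.06 for accessory subunits (21 of 29 lower) and -0.05 for assembly factors (6 of 7 lower). In limma 0 of 42 genes had an adjusted p under 0.05, where 0.0542% of all genes did, and 0 of 42 had an unadjusted p under 0.05, where 2.8% of all genes did. On whole reads DESeq2 called 0 of the 42 (0.23% of all genes) and edgeR 0 (0.061% of all genes). The ranges of Dp3Tyb and WT hearts overlapped for all 42 genes, where 0.975% of all genes had groups that did not overlap. In this whole-heart RNA, fewer cells of a type and less RNA per cell cannot be told apart. For 37 of the 42 genes the 95% interval of the fold change was within 1.5-fold in both directions, as it was for 73.2% of all genes. The limma p-values set the difference between the groups against the spread between these hearts, moderated by that of all genes.

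The 5 Dp3Tyb hearts did not behave alike. Against the mean of their WT littermates, 35 of the 42 genes were lower in replicate 4, 27 in replicate 5 and 26 in replicate 1, while 15 were lower in replicate 2 and 17 in replicate 3. The summed value of the 42 genes was 41487, 44030, 43916, 37580 and 40588 in Dp3Tyb replicates 1 to 5, against 40050, 43208, 40643, 43054 and 47634 in the WT hearts. Dp3Tyb replicate 4 had the lowest sum and WT replicate 5 the highest, and the other 8 hearts interleaved. The lean to lower values was lost under some settings and kept under others. Without WT replicate 5 the median of the 42 genes was 0.00 with 20 lower, without the hearts over 10% mitochondrial reads it was 0.00 with 21 lower, and with array weights it was 0.01 with 14 lower. Without Dp3Tyb replicate 5 the median of the 6 core subunits was 0.08 and 23 of the 42 genes were lower. With a term for the mitochondrial read share the median was -0.05 with 32 lower, and 6 genes, all lower (Ndufa5, Ndufaf3, Ndufs6, Ndufa8, Ndufaf2 and Ndufa12), had an unadjusted p under 0.05, where 1995 of all 14763 genes did, with 0 passing after adjustment (lowest limma adjusted p = 0.216). In the same comparison the median log2 fold change was -0.08 for 15 cardiomyocyte markers, 0.16 for 9 mesenchyme markers and 0.24 for 8 macrophage markers, with 0 of them called, and their part in the complex I values was not tested. Lung and foregut markers had a median of 1.83 over the 8 tested (0 called). Their summed value lay between 479 and 1231 in Dp3Tyb hearts and between 369 and 878 in WT littermates, and of the defining genes Sftpc was at 0 in 15 and Nkx2-1 in 4 of the 20 libraries.

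In Ts1Rhr hearts no complex I gene passed the test either. The median log2 fold change was 0.02, with 16 genes lower and 26 higher, against 0.00 and 50.4% below 0 over all 14867 genes. The medians were 0.08 for core subunits (5 of 6 higher), 0.01 for accessory subunits (17 of 29 higher) and 0.06 for assembly factors (4 of 7 higher). Of the 42 genes 0 had an adjusted p under 0.05 in limma (0.0269% of all genes) and 0 an unadjusted p under 0.05 (5.52% of all genes), and on whole reads DESeq2 called 0 (0.168% of all genes) and edgeR 0 (0.0269% of all genes). The lowest adjusted p of a member in limma was 0.795. Ranges overlapped for all 42 genes, where 1.12% of all genes had groups that did not overlap. For 39 of the 42 genes the 95% interval was within 1.5-fold, as it was for 74.2% of all genes.

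Single Ts1Rhr hearts lay on both sides of WT. Only 5 of the 42 genes were lower than the WT mean in replicate 1 and 11 in replicate 3, while 28 were lower in replicate 2, 20 in replicate 4 and 23 in replicate 5. The summed value was 44092, 40583, 47209, 41172 and 39687 in Ts1Rhr replicates 1 to 5 and ranged from 40324 to 44079 in WT littermates. Without replicates 1 and 2, the hearts whose labels name defects, the median of the 42 genes was 0.07 with 18 lower. These hearts also had the highest mitochondrial read shares of the 5 Ts1Rhr hearts, 11.6% and 13.1%. The label and the share cannot be told apart in this group. In that fit 5 of the 42 genes had an unadjusted limma p under 0.05. Ndufs6 (-0.45), Ndufa12 (-0.43) and Ndufa1 (-0.22) were lower, and Ndufaf5 (0.37) and Ndufb6 (0.37) were higher. After adjustment 0 passed (lowest limma adjusted p = 0.297). Without replicate 3 the median of the 42 genes was -0.02 with 25 of 42 lower. The median of the assembly factors was then -0.02, so 1 heart turned the direction. Macrophage markers had a median of 0.33, with 8 of 8 higher. Of these 5 had an unadjusted limma p under 0.05, where 5.52% of all genes did. Medians were 0.26 for erythroid markers (9 of 9 higher), 0.10 for epicardium, 0.08 for endothelium and endocardium and 0.07 for mesenchyme. Cardiomyocyte markers had -0.01 and lung and foregut markers -1.70 (0 called in each list after adjustment). The summed value of the lung and foregut markers lay between 418 and 833 in Ts1Rhr hearts and between 532 and 932 in WT littermates. The part of these cell types in the complex I values was not tested.

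**Figure D2:**
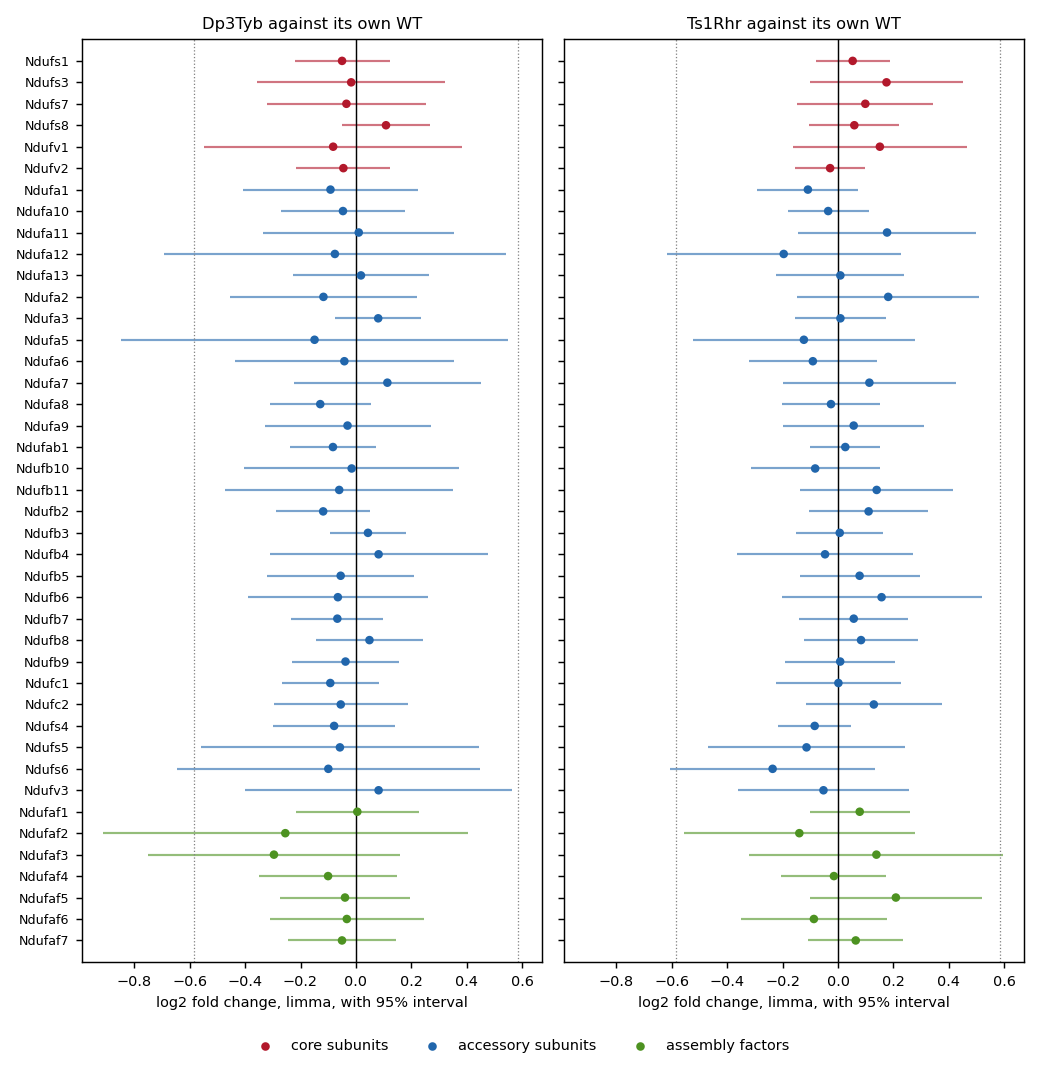
Log2 fold change (point) and 95% interval (line) of 42 complex I genes in Dp3Tyb (left) and Ts1Rhr (right) against their own WT littermates, 5 hearts in each group, coloured by class, with dotted lines at 1.5-fold. All 42 intervals include 0 in both strains, and 37 of 42 in Dp3Tyb and 39 of 42 in Ts1Rhr are within 1.5-fold.

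The core subunits of the matrix arm were compared first. Ndufv1 (ENSMUSG00000037916, chromosome 19, 4007499 to 4012755) holds the flavin that takes electrons from NADH. Its normalised value was 2505, 2643, 2759.5, 2222 and 1413 in Dp3Tyb and 2459, 2793, 2583, 2839 and 1515 in WT littermates. It was 2025, 1736, 2787, 2386 and 2269 in Ts1Rhr and 1842, 1949, 2226, 1543 and 2549 in WT littermates. The lowest heart of the Dp3Tyb group and of its WT group, replicate 5 in each, were far below the other 4, and ranges overlapped in both cohorts. The log2 fold change was -0.08 ± 0.21 in Dp3Tyb and 0.15 ± 0.14 in Ts1Rhr (SE, limma adjusted p = 1.0 and 0.797).

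Ndufs1, the largest iron-sulfur subunit (ENSMUSG00000025968, chromosome 1, 63143592 to 63176822), was more even. Its value was 4717, 4938, 5023, 4107 and 4219.6 in Dp3Tyb and 4379.6, 4922, 4475, 4951 and 5053 in WT littermates, and in the other cohort it was 4485, 4252, 4825, 4466 and 4415 in Ts1Rhr and 4093, 4386, 4472, 4035 and 4662 in WT littermates. Hearts with over 10% mitochondrial reads held the highest value of all 20 (5053) and the 2 lowest (4035 and 4093). The log2 fold changes were -0.05 ± 0.08 and 0.05 ± 0.06 (limma adjusted p = 1.0 and 0.81).

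Ndufs3, Ndufs7 and Ndufs8 lie on the path to ubiquinone, where Ndufs7 and Ndufs8 carry iron-sulfur clusters. Ndufs3 was 1499 ± 287 in Dp3Tyb against 1505 ± 217 (SD, n = 5 each). Its log2 fold change was -0.02 ± 0.15, and in Ts1Rhr it was 0.17 ± 0.13, the highest of the core subunits there. Ndufs7 had -0.03 ± 0.13 and 0.10 ± 0.11. Ndufs8 was the core subunit with a positive value in Dp3Tyb (0.11 ± 0.07, 95% interval -0.05 to 0.27) and had 0.06 ± 0.07 in Ts1Rhr. Ndufv2, which holds an iron-sulfur cluster beside the flavin subunit, had -0.05 ± 0.08 and -0.03 ± 0.06. Adjusted p-values of these 4 genes were 1.0 in Dp3Tyb and between 0.795 and 0.882 in Ts1Rhr (limma). Of the exonic bases of Ndufs7 49.4% are shared with Gamt, which is read from the other strand, and no source says whether counting used strand, so its value could hold reads of Gamt.

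The 7 core subunits encoded in the mitochondrial genome had a median of 0.00 in Dp3Tyb and -0.44 in Ts1Rhr (0 of 7 called in each, limma). Their summed value ranged from 273901 to 2011458 over the WT littermates of Dp3Tyb alone, and it is part of the mitochondrial read share.

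Among the accessory subunits the highest in Dp3Tyb were Ndufa7 (0.11 ± 0.15), Ndufb4 (0.08 ± 0.18), Ndufv3 (0.08 ± 0.22) and Ndufa3 (0.08 ± 0.07). The lowest were Ndufa5 (-0.15 ± 0.32), Ndufa8 (-0.13 ± 0.08), Ndufb2 (-0.12 ± 0.08) and Ndufa2 (-0.12 ± 0.15). In Ts1Rhr the highest were Ndufa2 (0.18 ± 0.15), Ndufa11 (0.18 ± 0.15), Ndufb6 (0.16 ± 0.17) and Ndufb11 (0.14 ± 0.13), and the lowest were Ndufs6 (-0.24 ± 0.17), Ndufa12 (-0.20 ± 0.19), Ndufa5 (-0.12 ± 0.18) and Ndufs5 (-0.11 ± 0.16). These are log2 fold changes with SE, and 0 of them passed (limma adjusted p of at least 0.795). Leaving out 1 heart moved some of them widely without turning the sign. In Ts1Rhr it gave Ndufs6 -0.32 to -0.098, Ndufa12 -0.30 to -0.040 and Ndufb6 0.029 to 0.29, and in Dp3Tyb Ndufb4 0.0084 to 0.25. By place in the complex, the median was -0.05 for 15 genes of the matrix arm and -0.05 for 19 of the membrane arm in Dp3Tyb, and 0.05 and 0.01 in Ts1Rhr.

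Ndufv3 (ENSMUSG00000024038), a small subunit bound to the flavin end, was compared because its human orthologue is in 3 copies in Down syndrome, while in these mice it is not. Its value was 1197, 1314, 1350.1, 1057 and 1927 in Dp3Tyb and 1015, 1147, 1097, 1143 and 2231 in WT littermates. In Ts1Rhr it was 1726, 1673, 1439.5, 1241 and 1175, and in WT littermates it was 1471, 1522, 1238, 2023 and 1298. The highest value of each group came from a heart with over 10% mitochondrial reads, and the groups overlapped. Its 95% interval was -0.40 to 0.56 in Dp3Tyb and -0.36 to 0.26 in Ts1Rhr on the log2 scale (limma adjusted p = 1.0 and 0.914), and a gain of 1.5-fold, the ratio of 3 copies to 2, corresponds to the dotted line in the plot of log2 fold changes.

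Ndufa5 (ENSMUSG00000023089, chromosome 6, 24518662 to 24527690), an accessory subunit of the matrix arm, varied most. It was 794, 759.8, 746, 600.0 and 1522 in Dp3Tyb and 734, 853, 718, 741 and 2069.9 in WT littermates. In the second cohort it was 1208, 1254, 948, 833 and 835 in Ts1Rhr and 1079.8, 1085, 919, 1715 and 829.6 in WT littermates. Replicate 5 was the highest heart in both groups of the Dp3Tyb cohort, and without WT replicate 5 the log2 fold change turned from -0.15 to 0.14.

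Both X-linked subunits belong to the membrane arm, and in humans both are disease genes. Ndufa1 (ENSMUSG00000016427) was 433, 448, 470.4, 403 and 515 in Dp3Tyb and 432, 440.1, 461, 414 and 716 in WT littermates, and 507 ± 58.1 in Ts1Rhr against 545 ± 29.1 (SD, n = 5 each). WT replicate 5 stood above all other hearts of its cohort. The log2 fold changes of Ndufa1 were -0.09 ± 0.14 and -0.11 ± 0.08. Ndufb11 (ENSMUSG00000031059) was 976, 1070.5, 1014, 974 and 596 in Dp3Tyb and 977, 1054, 1035, 1121 and 634 in WT littermates, and 1009.9 ± 139 in Ts1Rhr against 921 ± 159. Replicate 5 was lowest in both groups of the Dp3Tyb cohort. Of its exonic bases 67.8% overlap Rbm10 on the opposite strand, so its value could include reads of that gene.

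Near-identical copies make some values uncertain. Ndufb4 had a mean value of 237 over all hearts, while Ndufb4c, a transcribed pseudogene identical to it over 390 bases, had 651. The sum of both was 849 ± 88.3 in Dp3Tyb against 829 ± 129 in WT littermates and 904 ± 118 in Ts1Rhr against 969 ± 77.4 (SD, n = 5 each), differences smaller than the spread between hearts. Ndufa12 (mean 1119) has the copy Ndufa12-ps (mean 136), Ndufs6 (974) has Gm10443 (172) and Ndufab1 (1696) has Gm4459 (83.5).

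**Figure D3:**
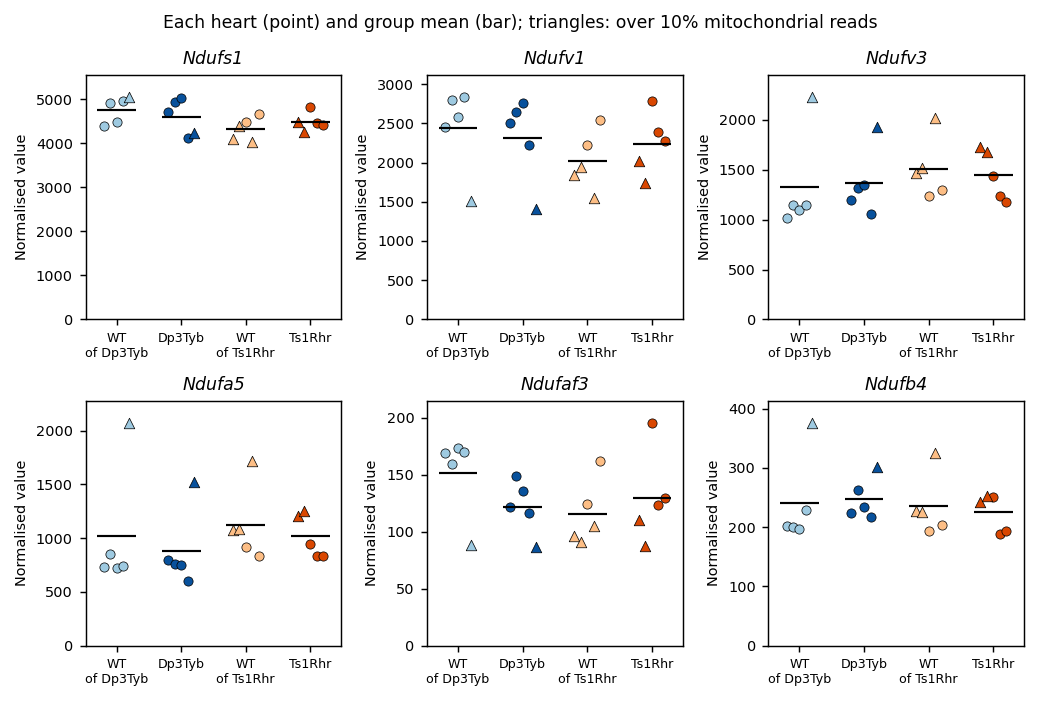
Normalised value of Ndufs1, Ndufv1, Ndufv3, Ndufa5, Ndufaf3 and Ndufb4 in each heart (point) with the group mean (bar), by group, where triangles are hearts with over 10% mitochondrial reads. Mutant and WT points overlap in all 6 panels, and triangles are high for Ndufa5 and Ndufv3, low for Ndufv1 and Ndufaf3, and at both ends for Ndufs1.

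The assembly factors were compared next. Ndufaf3 (ENSMUSG00000070283, chromosome 9, 108565587 to 108567436) acts with Ndufaf4 in building the arm that binds ubiquinone, and had the lowest log2 fold change of the 42 genes in Dp3Tyb. Its value was 122, 149, 136, 117 and 86.7 in Dp3Tyb and 169, 159, 173, 169.7 and 88.1 in WT littermates. It was 110.2, 87.9, 195, 124 and 129 in Ts1Rhr and 96.1, 91.1, 125, 105 and 163 in WT littermates. In the Dp3Tyb cohort 4 WT hearts were above every Dp3Tyb heart and the other one, replicate 5, was among the lowest. The log2 fold change was -0.30 ± 0.21 in Dp3Tyb (95% interval -0.75 to 0.16, limma adjusted p = 1.0) and 0.14 ± 0.21 in Ts1Rhr (-0.32 to 0.60, adjusted p = 0.842). Without WT replicate 5 it was -0.48 in Dp3Tyb (limma adjusted p = 0.858), and without the hearts over 10% mitochondrial reads it was -0.36 (adjusted p = 0.285).

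Ndufaf2 (ENSMUSG00000068184) is a paralogue of the accessory subunit Ndufa12 and acts late in assembly, when Ndufa12 takes its place. Its value was 164, 146, 147, 169 and 295 in Dp3Tyb and 218, 183, 184, 132 and 440.4 in WT littermates, a log2 fold change of -0.26 ± 0.30 with a 95% interval of -0.91 to 0.40. In Ts1Rhr it was -0.14 ± 0.19. The value of replicate 5 was the highest in both groups of the Dp3Tyb cohort, and 47.2% of its exonic bases overlap a non-coding gene on the opposite strand.

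Ndufaf5, which hydroxylates an arginine of Ndufs7, was the highest of the 42 genes in Ts1Rhr. It was 168, 133, 225, 186 and 185 in Ts1Rhr and 146, 171, 154, 124 and 173 in WT littermates, and 3 of the 5 Ts1Rhr hearts were above all WT hearts. The change was 0.21 ± 0.14 on the log2 scale (adjusted p = 0.795, limma). In Dp3Tyb it was -0.04 ± 0.11. Ndufaf1, part of the complex that assembles the membrane arm, had 0.00 ± 0.10 and 0.08 ± 0.08. Ndufaf4 had -0.10 ± 0.11 and -0.01 ± 0.09, Ndufaf6, needed early in assembly, had -0.03 ± 0.13 and -0.09 ± 0.12, and Ndufaf7, a methyltransferase, had -0.05 ± 0.09 and 0.06 ± 0.08. Of 12 further assembly factors 11 were tested, with medians of 0.01 in Dp3Tyb and 0.09 in Ts1Rhr and 0 called in either strain.

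The change in Dp3Tyb was then set against that in Ts1Rhr in 1 fit of all 20 libraries. The median difference over the 42 genes was -0.08, with 27 genes lower in the Dp3Tyb contrast, against 0.00 and 49.6% over 15348 genes. Without WT replicate 5 of Dp3Tyb it was -0.02 with 21 lower, without the hearts over 10% mitochondrial reads -0.03 with 22 lower, and with array weights 0.01 with 21 lower. With a term for the share it was -0.07 with 34 lower, and leaving out 1 heart gave -0.10 to -0.02. In the first fit the median difference was -0.12 for core subunits, -0.03 for accessory subunits and -0.11 for assembly factors. The last of these was 0.0029 without WT replicate 5 of Dp3Tyb. Of the 42 genes 0 passed in limma (0.013% of all genes), 0 had an unadjusted p under 0.05 (1.52% of all genes), and on whole reads DESeq2 called 0 (0.0195% of all genes) and edgeR 0 (0.013% of all genes). The genes with the lowest difference were Ndufaf3 (-0.43 ± 0.31), Ndufa2 (-0.30 ± 0.23) and Ndufaf5 (-0.25 ± 0.18), and those with the highest were Ndufs6 (0.14 ± 0.32), Ndufv3 (0.13 ± 0.28) and Ndufb4 (0.13 ± 0.24). The adjusted p was 1.0 for each (limma). The 95% interval of the difference was within 1.5-fold for 27 of the 42 genes, as for 56.8% of all genes, so larger differences between strains remained within the error for the other 15.

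Nuclear subunits of complexes II to V had values close to those of complex I. Over 44 genes the median was -0.05 in Dp3Tyb (34 lower), 0.03 in Ts1Rhr (28 higher) and -0.08 between strains (33 lower), with 0 called in each. A list of 12 regulators of respiratory genes had medians of -0.06 and -0.09 (0 called).

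Hearts differed in complex I transcripts mainly along 1 axis, which ran with the mitochondrial read share in hearts of all 4 groups. The first principal component of the 42 genes over 20 hearts held 73.4% of their variance and the second 12.2%. Ranked along the first component, the hearts in places 1 to 8 were those in places 1 to 8 by mitochondrial read share. These held hearts of all 4 groups. Places 9 to 12 were all hearts of the Ts1Rhr cohort and places 13 to 20 all hearts of the Dp3Tyb cohort. In these places the order departed from that of the share. Dp3Tyb replicate 3 (6.15%) was in place 15 and Ts1Rhr replicate 3 (5.50%) in place 12. The relation to the share was examined after the data had been seen. In a limma fit of all 20 libraries with group and log2 of the share as terms, 16 of the 42 genes went up with the share and 16 went down (adjusted p under 0.05). Over all 15348 genes 61.1% passed, 29.6% up and 31.5% down, so the 32 of 42 are to be read against a share that is already large.

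**Figure D4:**
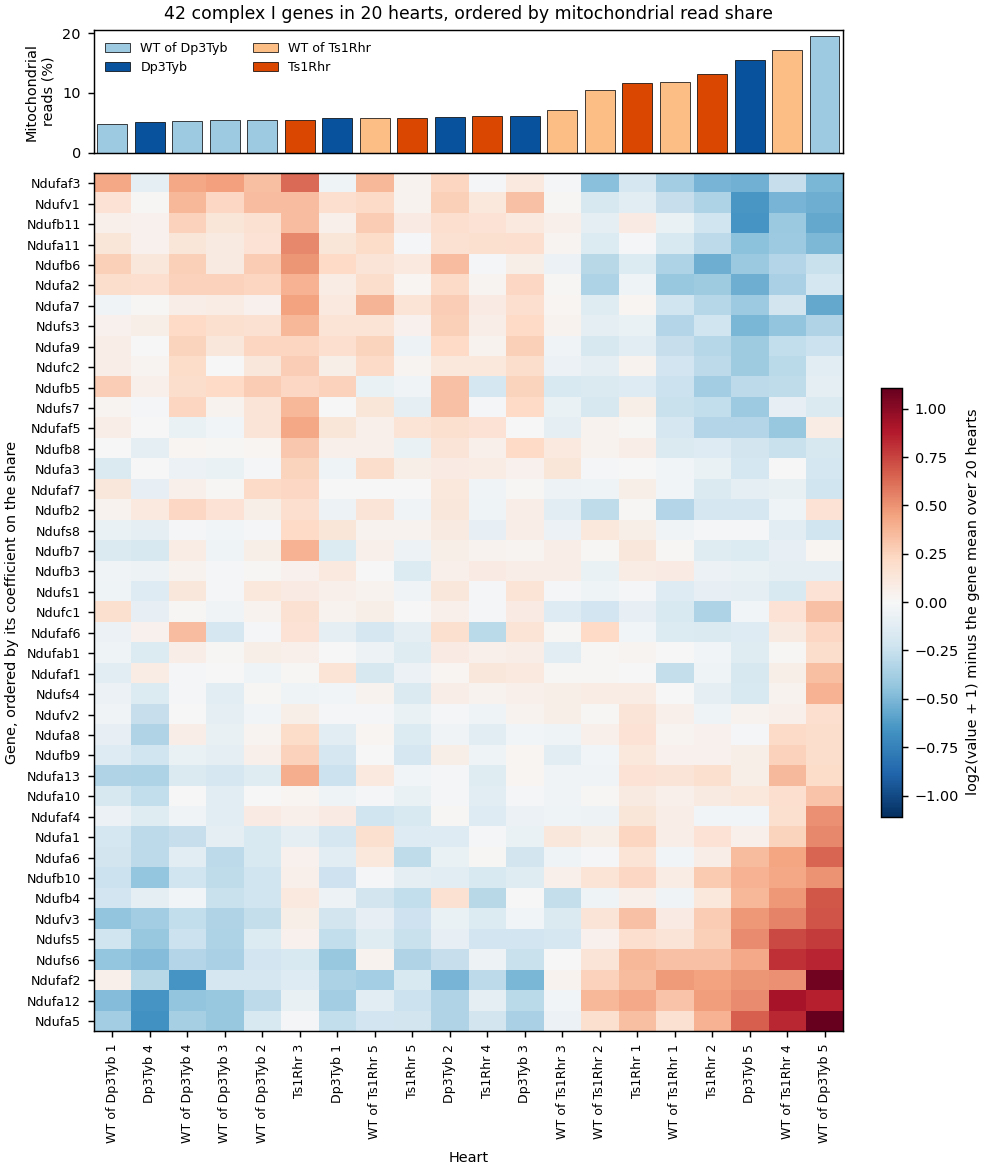
Log2 value of each of 42 genes (rows, ordered by their coefficient on the share) minus its mean, in 20 hearts (columns, ordered by mitochondrial read share, shown as bars in % coloured by group). The 7 hearts over 10%, on the right, are blue for the upper rows such as Ndufaf3 and Ndufv1 and red for the lower rows such as Ndufa12 and Ndufa5, in every group.

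The subunits did not move together. Ndufa5 went up by 0.67 ± 0.05 on the log2 scale for each doubling of the share (SE), Ndufa12 by 0.64 ± 0.03 and its paralogue Ndufaf2 by 0.61 ± 0.06. Ndufs6, a zinc-binding subunit of the matrix arm, went up by 0.55 ± 0.04, Ndufs5, a subunit on the intermembrane side, by 0.50 ± 0.04 and Ndufv3 by 0.47 ± 0.04. At the other end Ndufaf3 changed by -0.46 ± 0.07, Ndufv1 by -0.45 ± 0.04, Ndufb11 by -0.39 ± 0.04 and Ndufa11, a membrane arm subunit, by -0.36 ± 0.04. Ndufb6 (-0.35 ± 0.05), Ndufa2 (-0.35 ± 0.05), Ndufa7 (-0.34 ± 0.04) and Ndufs3 (-0.34 ± 0.04) also went down. The largest adjusted p of these 14 genes was 3.23e-06 (limma).

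Accessory subunits and assembly factors held genes of both directions. Of the 6 core subunits 1 went up (Ndufv2, 0.08 ± 0.03) and 3 went down (Ndufv1, Ndufs3 and Ndufs7), of the 29 accessory subunits 13 went up and 10 down, and of the 7 assembly factors 2 went up (Ndufaf2 and Ndufaf4) and 3 down (Ndufaf3, Ndufaf5 and Ndufaf7). With a library size term the calls of Ndufv2 (0.02, limma adjusted p = 0.756), Ndufaf4 (0.07, adjusted p = 0.453), Ndufaf7 (-0.12, adjusted p = 0.141), Ndufa1, Ndufa6, Ndufa8, Ndufa13 and Ndufb9 were lost, which left 8 accessory subunits going up. Ndufv2, Ndufaf4, Ndufaf5, Ndufaf7, Ndufa8, Ndufa13 and Ndufb9 each lost the call in 1 of 20 fits that left out a heart. Genes that bind each other in the complex could go opposite ways, such as Ndufv1 and Ndufv3. Ndufs1 (-0.03 ± 0.03), Ndufb3 (-0.05 ± 0.03) and Ndufab1, the acyl carrier protein (0.03 ± 0.03), did not pass. In complexes II to V 12 of 44 genes went up and 20 down, and of 15 cardiomyocyte markers 9 went up and 4 down.

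For Ndufa5 all 7 hearts over 10% had values of at least 1079.8 and all 13 others at most 948. For Ndufv1 the 7 hearts had at most 2025 and the others at least 2222, and for Ndufaf3 they had at most 110.2 and the others at least 117. The ratio of Ndufa5 to Ndufv1 within a heart went from 0.261 in WT replicate 4 of Dp3Tyb, with a share of 5.30%, to 1.37 in WT replicate 5 of Dp3Tyb, with a share of 19.5%. The summed value of the 42 genes in the 7 hearts was within the range of the other 13 except in WT replicate 5 of Dp3Tyb.

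Within the 13 hearts at or under 10%, whose shares span only 4.85% to 7.17%, 0 of the 42 genes passed (limma), where 0.02% of all genes did. The coefficient there was 0.67 for Ndufa12, 0.60 for Ndufa5, 0.48 for Ndufs6 and -0.75 for Ndufaf3, and 0.08 for Ndufv1 and -0.11 for Ndufaf2, so the lack of calls says little about the relation in this narrow range. Within the 7 hearts over 10%, fitted without a group term, 12 genes went up and 5 down, where 26.7% of all genes passed. The coefficient there was 1.06 for Ndufa5, 0.67 for Ndufa12, -0.71 for Ndufb11 and -0.52 for Ndufv1, but -0.08 for Ndufaf3, -0.01 for Ndufb6 and -0.02 for Ndufa2, which did not pass. With the number of reads of a library as a further term, 9 went up and 16 down, where 36.7% of all genes passed. Without WT replicate 5 of Dp3Tyb, the smallest library, 11 went up and 16 down, where 51.9% of all genes passed. The share, library size and any difference in the RNA of these hearts cannot be told apart by the design, and a cause was not tested. Over the 42 genes the coefficient had a Spearman's rho of -0.158 with the GC content of the transcript and of 0.0784 with its length, a description over genes that share the same 20 libraries.

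**Figure D5:**
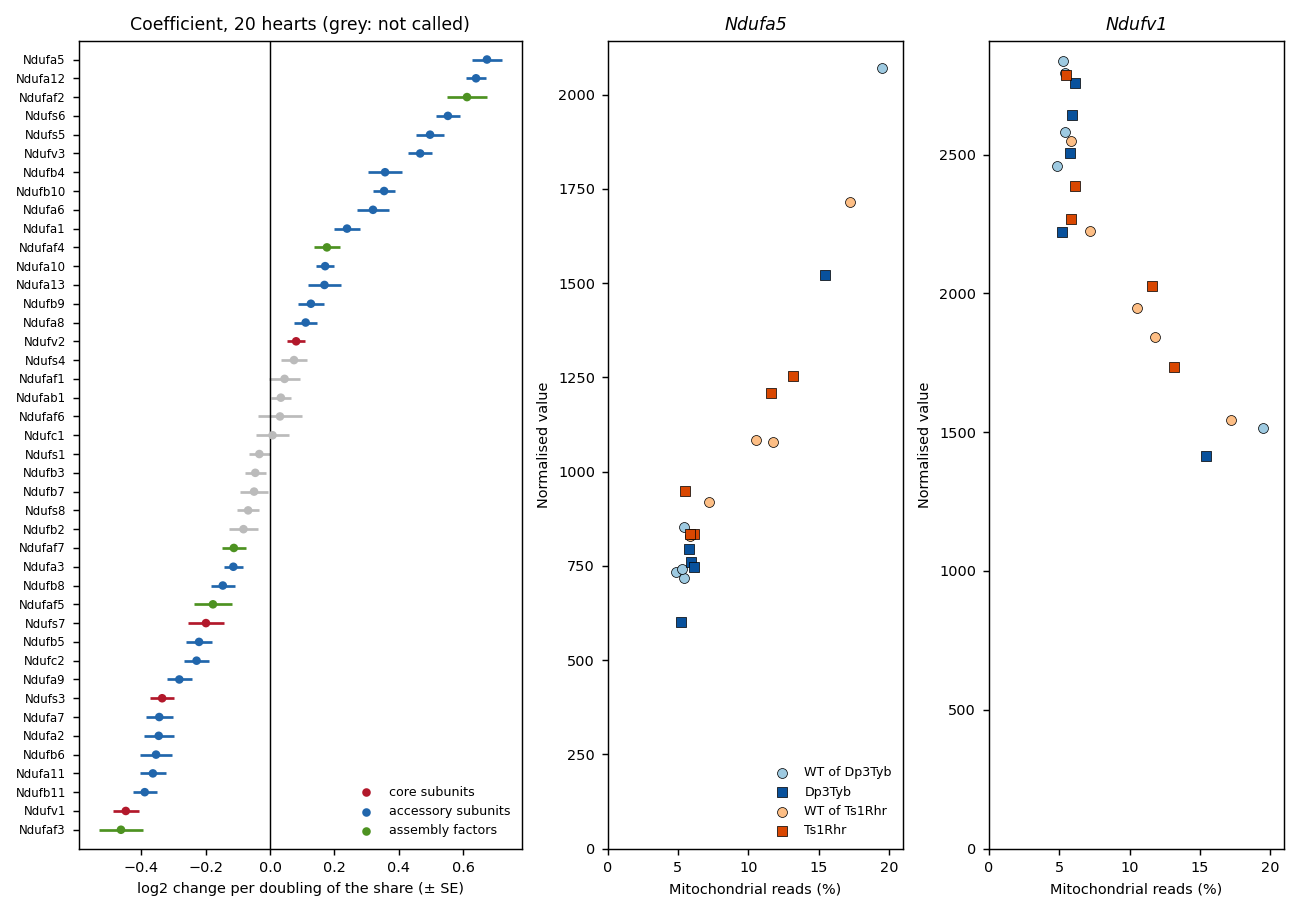
Left, change of each of 42 genes per doubling of the mitochondrial read share (log2, limma, ± SE) over 20 hearts, in grey where not called, and right, normalised values of Ndufa5 and Ndufv1 in each heart against the share (%), by group. Ndufa5 rises from 600.0 to 2070 and Ndufv1 falls from 2839 to 1413, with hearts of all 4 groups on the same course.

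The directions of genes with each motif were counted. With the NRF1 letters 2 genes went up (Ndufa8 and Ndufaf4) and 2 down (Ndufa11 and Ndufaf5), where both that went up lost the call with the library size term. With the YY1 letters 1 went up (Ndufs6), 4 went down (Ndufa3, Ndufa9, Ndufb8 and Ndufs7) and 2 did not pass. With the ETS letters 0 went up, 2 went down (Ndufs3 and Ndufb6) and 3 did not pass. The gene with the palindrome, Ndufa7, went down. These counts describe few genes and were not tested.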

How the data were processed

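RNA from whole E13.5 hearts was sequenced in 20 libraries (KAPA mRNA HyperPrep, Illumina HiSeq). The deposited values are a signal, namely gene counts that the authors divided by a size factor for each library. The submitters' processing notes name Trimmomatic 0.36, STAR 2.5.2a, RSEM 1.2.31, DESeq2 and GRCm38. Whole reads were recovered from the steps in the values (100% whole within 0.001) and used for DESeq2 and edgeR as alternatives, giving 6.60 to 19.6 M reads for each library. Reads carry no molecular identifiers, so depth covers counting error only.

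Genes that reached a value of 10 in 5 or more libraries of a fit were tested with limma 3.58.1 (R 4.3.3, trend and robust prior) on log2(value + 1), so fold changes of low genes are understated. Tests were 2-sided with Benjamini-Hochberg adjustment over all genes and a threshold of 0.05. Each strain was fitted with its own WT littermates, and the difference between strains was an interaction in 1 fit of all 20 libraries. DESeq2 1.42.0 and edgeR 4.0.16, TMM scaling, other filters and pseudocounts, array weights, terms for sex and mitochondrial read share, and leaving out libraries were alternatives. The scripts were tested on simulated data.

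The members and gene lists were chosen with earlier results of these data known. Genes named in full were the core subunits, the assembly factors, Ndufv3, both X-linked subunits, the 4 highest and 4 lowest accessory subunits of each strain, the 3 largest differences between strains in each direction and the 3 highest and 3 lowest levels per kilobase. Other genes named for their relation to the mitochondrial read share or a near-identical copy were chosen after their values were seen.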

Additional observations from a re-analysis of the deposited data

Results flagged for a closer look

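Each of 28 named genes was examined in each of the 4 groups of 5 hearts, and the class means in 16 further sets, 128 sets in all that share the same 20 hearts. In 27 of them (21.1%) the highest or lowest heart was far from the other 4 by Dixon's test, where chance gives about 1 in 20 and 15.2% of such sets over all genes tested did so. Of these, 26 were hearts with over 10% mitochondrial reads. In WT replicate 5 of the Dp3Tyb cohort the values were 716 for Ndufa1, 437 for Ndufa11, 1938 for Ndufa12, 411 for Ndufa2, 2069.9 for Ndufa5, 388 for Ndufa7, 435 for Ndufaf1, 440.4 for Ndufaf2, 88.1 for Ndufaf3, 1016 for Ndufaf4, 376 for Ndufb4, 1359 for Ndufs5, 1682 for Ndufs6, 1515 for Ndufv1 and 2231 for Ndufv3. In Dp3Tyb replicate 5 they were 450.4 for Ndufa11, 1533 for Ndufa12, 323 for Ndufa2, 1522 for Ndufa5, 295 for Ndufaf2, 596 for Ndufb11, 1144 for Ndufs5 and 1253 for Ndufs6. WT replicate 4 of the Ts1Rhr cohort had 1715 for Ndufa5, 325 for Ndufb4 and 1321 for Ndufs5. The other heart was Dp3Tyb replicate 4, with 1770.4 for Ndufv2. Why these hearts stood apart was not tested.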

How the results depend on the processing

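No complex I gene passed in either strain or between strains under the alternatives run (limma, DESeq2 and edgeR). The median over the 42 genes turned from -0.05 to 0.01 in Dp3Tyb with array weights. It turned from 0.02 to -0.02 in Ts1Rhr without replicate 3. In Ts1Rhr it was 0.073 without the 2 hearts labelled with defects, which were also its hearts over 10% mitochondrial reads. In Dp3Tyb the sign turned with array weights for Ndufa1 (0.025), Ndufaf5 (0.052), Ndufaf6 (0.053), Ndufs1 (0.014), Ndufs3 (0.025), Ndufs7 (0.043) and Ndufv2 (0.0095), and without the hearts over 10% mitochondrial reads for Ndufa1 (0.0041), Ndufaf4 (0.0094), Ndufaf5 (0.052), Ndufaf6 (0.051), Ndufs1 (0.0023), Ndufs3 (0.021) and Ndufs7 (0.017). In Ts1Rhr it turned with a term for the share for Ndufa5 (0.045), Ndufaf2 (0.032), Ndufaf3 (-0.016), Ndufaf4 (0.038), Ndufs5 (0.023) and Ndufv3 (0.069), without the hearts over 10% for Ndufaf4 (0.051), Ndufaf6 (0.0046), Ndufs1 (-0.00037), Ndufs5 (0.019) and Ndufv3 (0.015), and with array weights for Ndufs8 (-0.010). Between strains it turned with the share term for Ndufs6 (-0.061) and Ndufv3 (-0.033). Leaving out 1 heart gave, in Dp3Tyb, Ndufa1 -0.15 to 0.051, Ndufa2 -0.20 to 0.026, Ndufa5 -0.36 to 0.14, Ndufa7 -0.0083 to 0.22, Ndufaf1 -0.034 to 0.081, Ndufaf2 -0.44 to 0.0076, Ndufaf4 -0.15 to 0.0076, Ndufaf5 -0.084 to 0.041, Ndufaf6 -0.094 to 0.037, Ndufb11 -0.20 to 0.091, Ndufs3 -0.12 to 0.12, Ndufs7 -0.11 to 0.072, Ndufv1 -0.25 to 0.085, Ndufv2 -0.071 to 0.0073 and Ndufv3 -0.049 to 0.29. In Ts1Rhr it gave Ndufa5 -0.22 to 0.040, Ndufaf3 -0.022 to 0.27, Ndufaf4 -0.066 to 0.033, Ndufs5 -0.19 to 0.039 and Ndufv3 -0.12 to 0.058, and between strains Ndufs6 -0.017 to 0.37. The causes were not tested. For the mitochondrial read share, examined after the data had been seen, 0 genes went up and 0 down at or under 10%, 5 went down over 10%, and 9 went up with a library size term. No paired analysis was run, because the labels give no replicate number, litter or batch that pairs hearts. The numbers used here follow accession order. The sex read from transcripts was the same in all 10 same-numbered pairs of a mutant and a WT heart, and whether these were matched is not given in the sources used here.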
